A study of Mus musculus with 28 samples.

Results

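Out of 28 kidney libraries in the study, 17 came from male db/db mice that had undergone uninephrectomy (Unx), the removal of 1 kidney: 12 were taken at 26 weeks of age and 5 at 35 weeks, and these are described here. They were chosen by the labelled strain, treatment and age alone, and the later age was compared with the earlier one. All 17 share the db/db genotype and the surgery, so that the contrast within them is age. In this model age is also the duration of diabetes, and the time since surgery may differ with it. The study used these mice to model advanced kidney disease of diabetes, with 11 male db/m mice with both kidneys left in place (intact) as the other strain, 5 at 26 weeks and 6 at 35 weeks. Of the 14845 genes in the deposited table, 13495 were tested, those whose value was 1 or more in 5 or more of the 28 libraries. The labels number the 5 libraries of 35 weeks as replicates 01, 02, 03, 05 and 06, and wherever 5 values are listed below they follow that order. The labels do not say that libraries came from separate animals. Each was counted as 1 animal, and p-values then measure only the spread between these libraries, which may be technical. The labels give no batch for library preparation or sequencing, and age and such a batch cannot be told apart.

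The db/db mouse carries a mutation that removes the long, signalling form of the leptin receptor, and becomes obese and diabetic. The db/m mouse carries 1 mutated copy and stays lean. Removing a kidney raises the load on the nephrons of the other one and speeds the course of kidney damage. In that course, proximal tubule cells, which take back most of what the glomerulus filters and rely on mitochondria to do so, lose transport and metabolic enzymes and switch on injury genes, while chemokines and antigen presentation draw in and engage immune cells.

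Depth was estimated from the step of the deposited values at 21.8 to 30.8 M counts per library, with a mean of 24.8 ± 1.84 M (SD, n = 12) at 26 weeks and 27.5 ± 3.41 M (SD, n = 5) at 35 weeks in db/db Unx. Lepr lay between 0.071 and 1.68 at 26 weeks and between 0.0365 and 1.27 at 35 weeks, a level set by too few reads to check a label, and a value per gene does not show a point mutation. On the first principal component of the 17 libraries, which held 24.3% of the variance, the 26-week libraries lay between -15.6 and -1.48. The 35-week libraries lay at 7.55, -2.50, 43.9, 30.4 and 23.4, so that replicate 02 fell inside the 26-week range and replicates 03, 05 and 06 stood farthest from it. The kidney marker Slc34a1 of the proximal tubule was present in all 17 libraries, between 3532 and 5122.

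**Figure D1:**
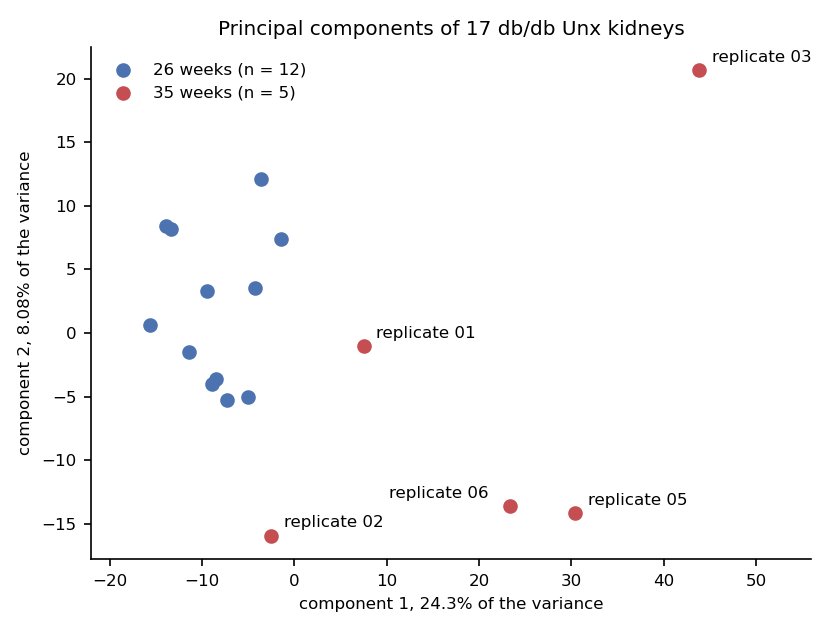
First and second principal components (24.3% and 8.08% of the variance) of the 17 db/db Unx libraries on log2(value + 1), 1 point per library, 12 at 26 weeks and 5 labelled points at 35 weeks. Replicate 02 of 35 weeks lies at -2.50 on component 1, inside the 26-week range of -15.6 to -1.48, and replicate 03 lies farthest away at 43.9.

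Between 26 and 35 weeks, many genes of antigen presentation, chemokine and NF-kB signalling, STAT3 signalling and tubule injury rose, and many enzymes of the proximal tubule, respiratory chain subunits and male-biased kidney genes fell, with the counts given below. In bulk RNA, more or fewer cells of a type and more or less RNA per cell cannot be told apart. Of the 13495 genes, 1526 (11.3%) changed at an adjusted p below 0.05 in limma, a linear model across all genes. Among them 697 (5.16%) rose and 829 (6.14%) fell. The rises were larger, with a median log2 difference of 0.52 among the genes that rose against a median size of 0.28 among those that fell, and 89 genes rose at least 2-fold while 11 fell at least 2-fold. The median over all tested genes was 0.0047. For 65 genes (0.482%) all 5 values of 35 weeks lay above all 12 of 26 weeks, and for 116 (0.86%) all 5 lay below. An exact two-sided permutation test over all divisions of the 17 libraries into 12 and 5, with 0.0001616 as the smallest p it can give, called 1097 genes, of which 981 were also called by limma. The number of called genes was 633 (289 that rose, 344 that fell) without replicate 05 of 35 weeks and 759 (373 and 386) without replicate 06, and 437 rose without replicate 03. Genes that rose at least 2-fold numbered 165 without replicate 02, 43 without 03 and 53 without 05. The 181 genes without overlap became 393 without replicate 01 and 487 without 02. In all, 526 genes (231 that rose and 295 that fell) were called in each of the 28 fits that left out 1 library. With replicates 03, 05 and 06 left out together, 2 libraries of 35 weeks remained and 8 genes were called, among them Slc6a18, Smim5, Ell3 and Ass1, while 1001 genes had an unadjusted p below 0.05. Of the members of the lists below, Slc6a18 and Ass1 were then still called.

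**Figure D2:**
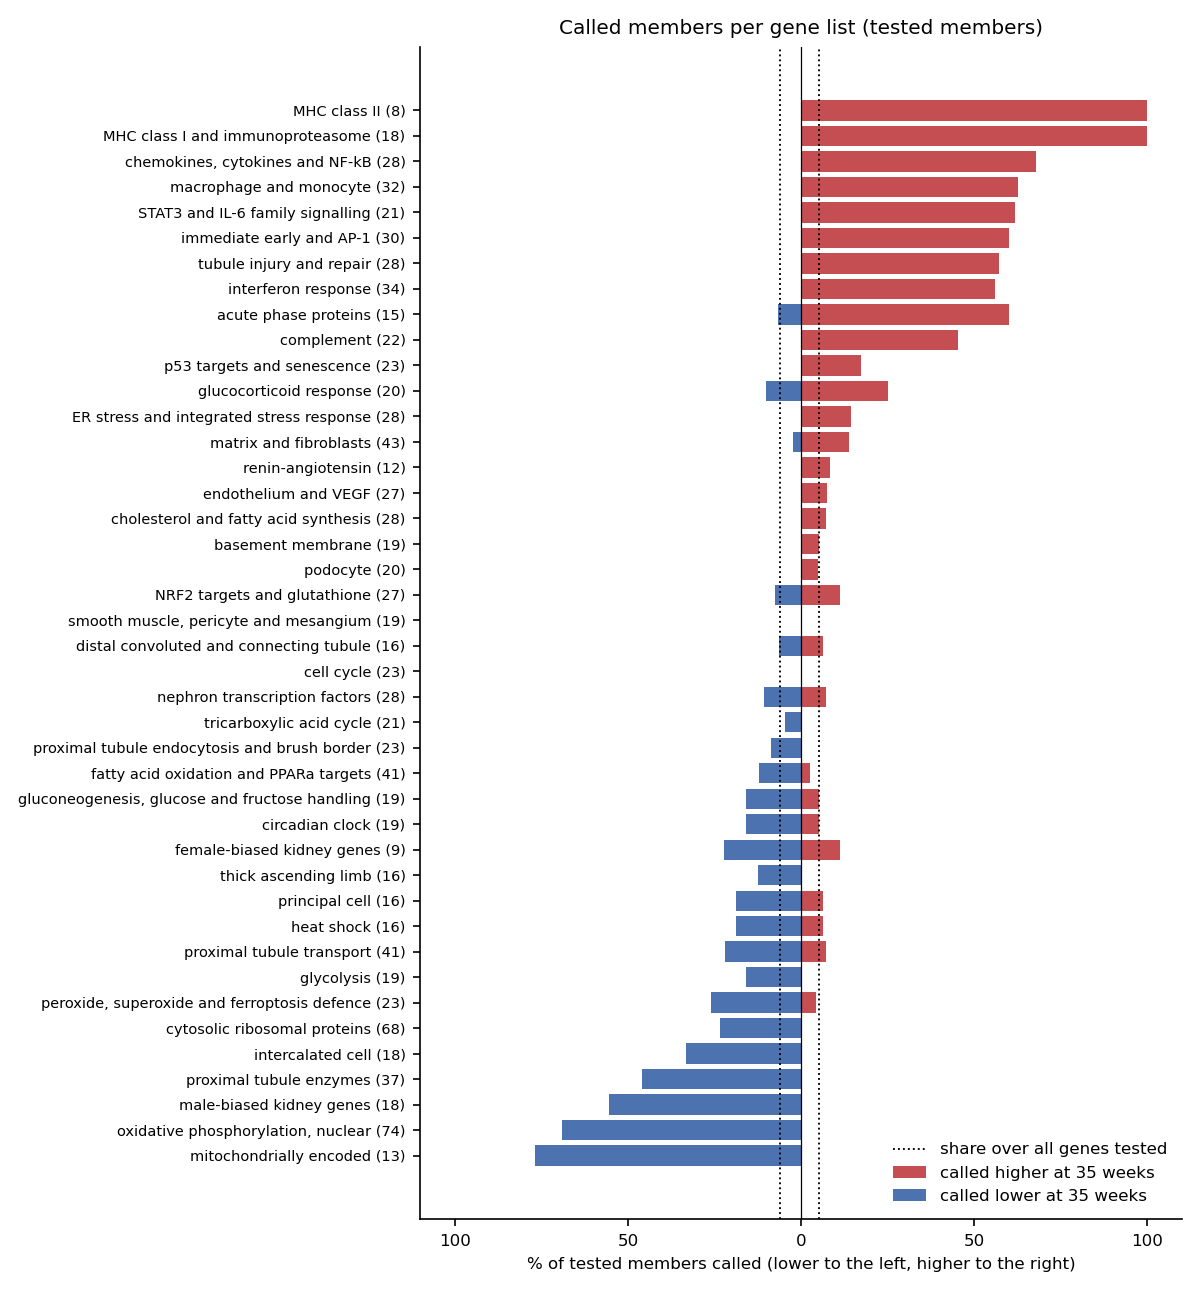
Share of the tested members of each gene list that were called lower (bars to the left) or higher (bars to the right) at 35 weeks in db/db Unx kidney, in percent of tested members (numbers in brackets). Dotted lines mark the shares over all tested genes, 6.14% lower and 5.16% higher, and all 8 tested MHC class II members and all 18 MHC class I members were called higher.

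The smallest adjusted p among genes that rose belonged to Slc6a18, an amino acid transporter of the proximal tubule brush border. It ranged from 375 to 449 (median 422) at 26 weeks and stood at 494, 596, 618, 633 and 571 at 35 weeks, with no overlap. The log2 difference was 0.49 ± 0.05 (SE), with an adjusted p of 5.64e-07. Slc6a18 also rose in db/m mice, by 0.25 ± 0.06. Stat3, the transcription factor activated by the IL-6 family of cytokines, ranged from 81.4 to 113 (median 94.5) and rose to 123, 129, 205, 153 and 145. All 5 later values lay above the 12 earlier ones, with replicate 03 highest, and the log2 difference was 0.60 ± 0.08 (SE), with an adjusted p of 1.19e-05. Btg1, an antiproliferative gene, went from a range of 53.4 to 79.1 (median 63) to 90.2, 87.5, 111, 128 and 108, again without overlap (log2 0.69 ± 0.09, adjusted p = 1.40e-05). Pnrc1, which encodes a nuclear receptor coregulator, and Hs6st1, a heparan sulfate sulfotransferase, rose without overlap by 0.71 ± 0.09 and 0.49 ± 0.07 (log2, SE). Both also rose in db/m mice, by 0.44 ± 0.10 and 0.47 ± 0.08.

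Further genes of this group act on the cytoskeleton and on receptors. Tnfrsf12a, the receptor for the cytokine TWEAK, ranged from 30.3 to 45.7 (median 38.4) at 26 weeks and rose to 56.7, 58.2, 64.6, 86.6 and 97.6. Replicates 05 and 06 were highest, none of the 5 overlapped the earlier age, and the log2 difference was 0.86 ± 0.12 (SE), with an adjusted p of 4.20e-05. Flna, an actin crosslinker, went from a range of 22.6 to 40.2 (median 29.8) to 49.9, 38.9, 51.2, 71 and 60.8, where only replicate 02 lay inside the 26-week range (log2 0.81 ± 0.12, adjusted p = 3.32e-05). Msn, which ties the membrane to actin, rose by 0.53 ± 0.08 (adjusted p = 6.95e-05). Nkx6-2, a homeobox gene at low level, ranged from 1.59 to 7.23 (median 3.31) and rose to 10.4, 9.05, 10.4, 21.2 and 8.96, all 5 above the earlier range (log2 1.43 ± 0.21, adjusted p = 4.20e-05). In db/m kidneys Nkx6-2 averaged 0.24 and 0.155 at the 2 ages.

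Among genes that fell, Smim5, a small membrane protein, had the smallest adjusted p of all genes. It ranged from 25.8 to 32.3 (median 30.2) at 26 weeks and stood at 14.6, 18.2, 13.7, 13.2 and 9.84 at 35 weeks. No later value reached the earlier range, and the log2 difference was -1.05 ± 0.09 (SE), with an adjusted p of 1.29e-09. Smim5 also fell in db/m mice, with a log2 difference of -0.42 ± 0.10. Ell3, a transcription elongation factor, fell from a range of 25.5 to 36.6 (median 30.3) to 20.1, 16.5, 15.4, 15.7 and 17.4, also without overlap (log2 -0.83 ± 0.10, adjusted p = 1.73e-06). Pdp2, a phosphatase that keeps pyruvate dehydrogenase active, fell from a range of 83.5 to 114 (median 97.8) to 79.1, 58.5, 60.2, 56.7 and 67.3, below the earlier range in all 5 (log2 -0.59 ± 0.08, adjusted p = 3.99e-06). Acaa1a, a peroxisomal thiolase of fatty acid oxidation with a close copy in Acaa1b, went from a range of 318 to 419.8 (median 370.2) to 293, 296, 271, 269 and 255 without overlap (log2 -0.41 ± 0.06, adjusted p = 6.95e-05). These 4 genes stayed called in each of the 28 fits that left out 1 library.

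**Figure D3:**
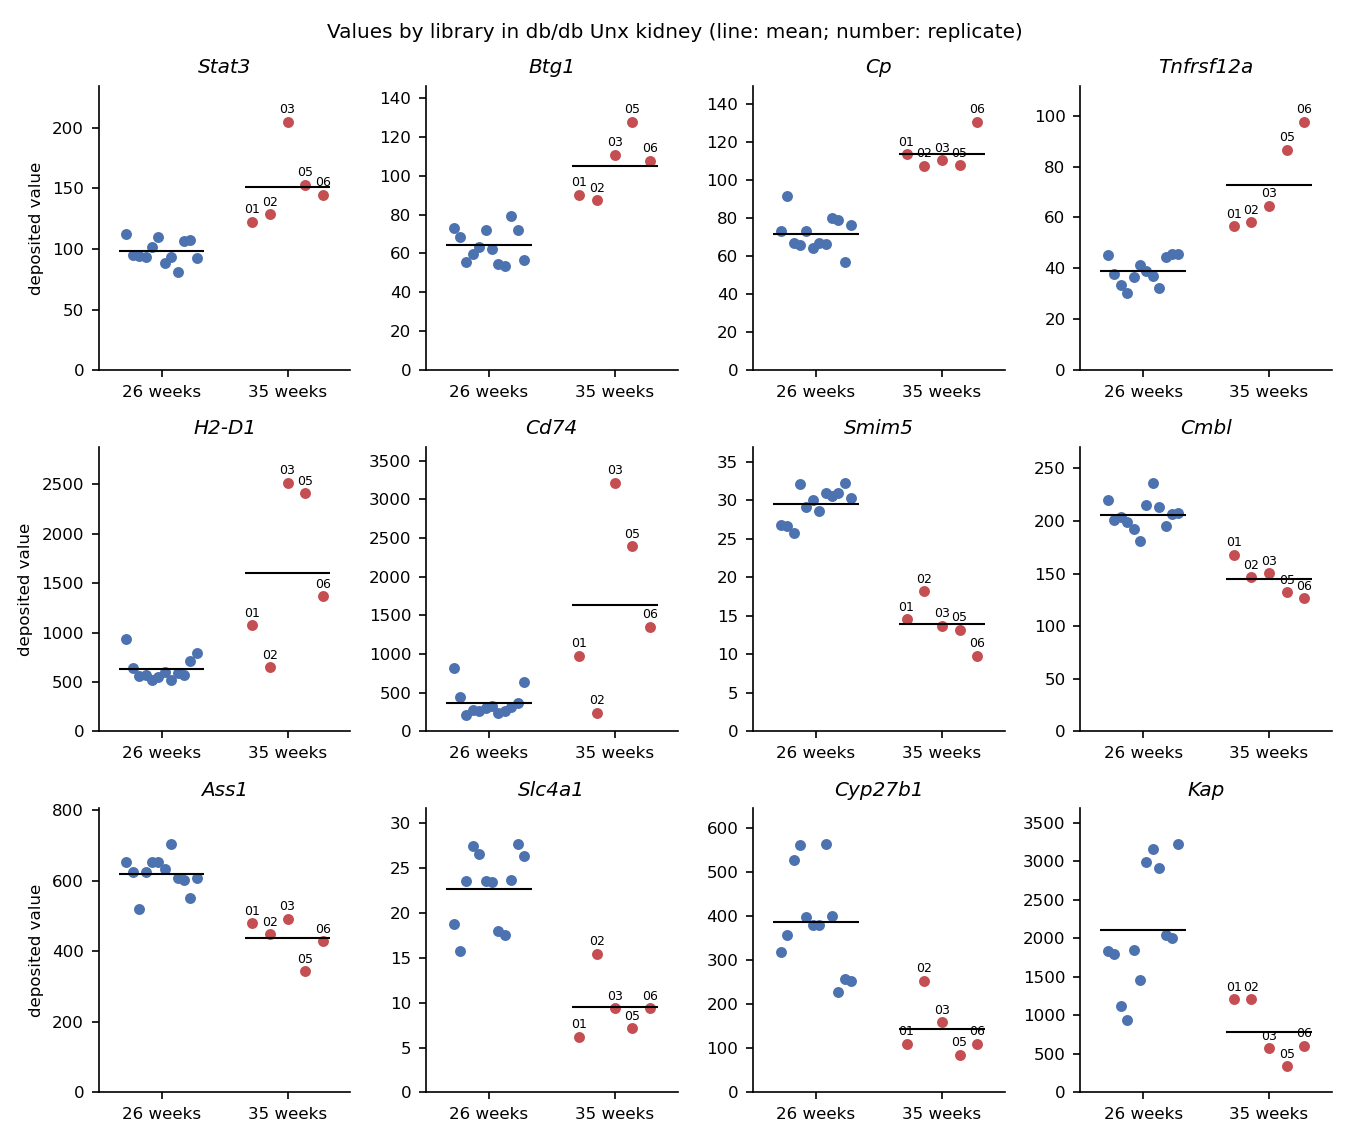
Deposited values (linear axes from 0) of 12 genes in each db/db Unx library at 26 weeks (n = 12) and 35 weeks (n = 5, numbered by replicate), with the group mean as a line. Stat3, Btg1, Cp and Tnfrsf12a at 35 weeks lie above every 26-week library in all 5 replicates, replicate 02 of H2-D1 (650) and Cd74 (244) lies inside the 26-week range, and Smim5, Cmbl, Ass1 and Slc4a1 lie below it in all 5.

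Antigen presentation by MHC class I uses a heavy chain, B2m, peptides cut by the immunoproteasome, transport by Tap1 and Tap2, and the loading factor Tapbp. Of the 18 genes on this list, all were tested and all 18 rose, with a median log2 difference of 1.22 against 0.0047 over all genes. H2-D1 carries a classical heavy chain and ranged from 517 to 938 (median 582) at 26 weeks, against 1071, 649.6, 2516, 2407 and 1368 at 35 weeks. Replicates 03 and 05 were highest and replicate 02 stayed within the earlier range, and the log2 difference was 1.19 ± 0.22 (SE), with an adjusted p of 0.00115. B2m, the light chain shared by all class I molecules, went from a range of 216 to 514 (median 273) to 547, 234, 1527, 1451 and 737 (log2 1.37 ± 0.30, adjusted p = 0.00492). H2-K1 followed the same order, with 456, 246, 1156, 1084 and 612 at 35 weeks, where only replicate 02 lay within the earlier range of 194 to 425 (log2 1.24 ± 0.25, adjusted p = 0.00249). Heavy chain genes resemble each other closely, and reads shared among H2-K1, H2-D1 and the H2-Q genes could have been split between them.

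Promoters of 5 antigen presentation genes are shown, each picked because it holds a motif of a known regulator. Each is the 250 bases before the gene start from RefSeq (GRCm38.p6), 5′ to 3′ on the gene's strand, with 1 motif in capitals, searched on both strands. H2-K1 (chr17:34000348-34000597, minus strand, the first of its listed starts) and H2-D1 (chr17:35262844-35263093, plus strand) hold the NF-kB core GGGATTCCC, present in 0.301% of the 32851 promoters of this length. B2m (chr2:122147437-122147686, plus strand) holds the interferon response core GAAANNGAA (7.13% of promoters). Psmb8 (chr17:34197945-34198194, plus strand) holds the STAT motif TTCNNNGAA (7.02%). H2-Aa of class II (chr17:34287824-34288073, minus strand) holds the X2 box letters TGACGTCA (1.55%). Among the 16 class I list members with a RefSeq promoter, the NF-kB core was found in H2-K1, H2-D1, H2-Q6 and H2-Q7, and the interferon response core in B2m, Erap1, H2-T22 and H2-T23, while the STAT motif was found in Psmb8 alone. Among the 5 class II members with one, the X2 box letters were found in H2-Aa alone. On lists described below, the NF-kB core was found in 0 of 14 called chemokine and NF-kB members with a promoter. The STAT motif was found in 2 of 12 such members of the STAT3 list, and the interferon response core in 10 of 16 of the interferon list. A member was counted if any of its listed promoters held the motif, whereas the shares above are per promoter, so that the 2 are not alike. A match is a description of letters and shows no binding. Each motif was searched in 1 fixed spelling, and a promoter without a match may hold another form of it.
H2-K1: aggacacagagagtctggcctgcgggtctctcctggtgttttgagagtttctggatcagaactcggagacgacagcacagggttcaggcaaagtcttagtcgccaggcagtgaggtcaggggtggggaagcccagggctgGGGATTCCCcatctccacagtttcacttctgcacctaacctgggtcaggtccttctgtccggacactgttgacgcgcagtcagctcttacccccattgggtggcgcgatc
H2-D1: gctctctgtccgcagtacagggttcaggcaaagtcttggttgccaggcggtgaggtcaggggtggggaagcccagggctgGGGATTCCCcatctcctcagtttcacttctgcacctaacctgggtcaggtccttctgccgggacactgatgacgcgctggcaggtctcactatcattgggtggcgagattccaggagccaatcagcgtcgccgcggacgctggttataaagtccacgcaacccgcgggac
B2m: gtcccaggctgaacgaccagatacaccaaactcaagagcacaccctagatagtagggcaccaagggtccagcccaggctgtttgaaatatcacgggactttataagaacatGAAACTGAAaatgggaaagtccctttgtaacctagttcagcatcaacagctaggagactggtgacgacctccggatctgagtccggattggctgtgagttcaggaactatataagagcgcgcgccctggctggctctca
Psmb8: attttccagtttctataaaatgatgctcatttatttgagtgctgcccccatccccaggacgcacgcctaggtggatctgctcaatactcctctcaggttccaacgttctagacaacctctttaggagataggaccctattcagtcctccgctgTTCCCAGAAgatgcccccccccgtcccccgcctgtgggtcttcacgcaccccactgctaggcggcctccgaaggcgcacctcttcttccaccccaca
H2-Aa: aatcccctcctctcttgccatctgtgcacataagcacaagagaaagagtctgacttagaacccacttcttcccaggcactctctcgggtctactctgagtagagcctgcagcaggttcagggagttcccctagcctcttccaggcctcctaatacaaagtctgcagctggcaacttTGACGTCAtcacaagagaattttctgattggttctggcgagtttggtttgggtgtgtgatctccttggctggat

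Immunoproteasome and peptide handling genes are on the same list. Psmb8, a catalytic subunit, ranged from 11.6 to 30.7 (median 13.5) at 26 weeks and reached 67, 13.6, 333, 116 and 54 at 35 weeks, with replicate 02 at the earlier median and replicate 03 far above the rest (log2 2.11 ± 0.42, adjusted p = 0.00241). Psmb10, another catalytic subunit, rose by 1.30 ± 0.29 and Tapbp by 0.87 ± 0.17 (log2, SE). H2-T23, a nonclassical heavy chain, went from a range of 57.3 to 89.9 (median 65.9) to 139, 80.2, 340.2, 184 and 117, with replicate 02 again inside the range (log2 1.16 ± 0.19, adjusted p = 4.54e-04). The call of Tap1, a subunit of the peptide transporter, was lost without replicate 03 (log2 0.91) or 05 (1.63), from 1.71 with all libraries. Of the 18, 13 members were called without replicate 03, 13 without replicate 05 and 15 without replicate 06, and 5 with the replicate number as a block. In the block fit, replicates 07 to 12 of 26 weeks, whose numbers no other library has, add nothing to the comparison of the ages. Counts with the block, here and below, therefore rest on fewer libraries. In db/m mice limma called none of the 18 between the ages, 1 had an unadjusted p below 0.05, and the median was -0.26. The difference between the age changes was called for H2-T23, Psme1 and Psme2, and for none of these without replicate 05 of 35 weeks. These 3 calls were also lost without 3 to 7 other libraries each.

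MHC class II presents peptides taken up from outside the cell and is carried mainly by macrophages, dendritic cells and B cells. All 8 tested of 11 listed genes rose, with a median log2 difference of 1.66. Cd74, the invariant chain, ranged from 218 to 822 (median 309.6) at 26 weeks and stood at 978, 244, 3219, 2398 and 1355 at 35 weeks. Replicate 02 lay low in the earlier range and the other 4 lay above it (log2 1.80 ± 0.42, adjusted p = 0.00765). H2-Aa, an alpha chain, went from a range of 64 to 171 (median 82.1) to 294, 62.6, 661, 603 and 278, with replicate 02 below the earlier minimum (log2 1.68 ± 0.35, adjusted p = 0.00343). H2-Eb1, a beta chain, and H2-DMb1, which edits the peptide cargo, rose by 1.64 ± 0.35 and 2.17 ± 0.44 (log2, SE). H2-DMb2, a second gene for that editing chain which is not on the list, stood at 54.9, 4.75, 144, 89.5 and 41.7 at 35 weeks against 3.42 to 19.8 (median 6.22) earlier (log2 2.58 ± 0.49, adjusted p = 0.00175). The call of H2-Ab1 was lost without replicate 05, where its log2 difference was 1.49 against 1.75. Without replicate 05, 5 of the 8 were called, and with the replicate number as a block none was. Summed levels of 32 macrophage markers ran from 167 to 319 at 26 weeks and from 216 to 838 at 35 weeks, and their part in these results was not tested.

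The interferon list holds genes switched on by type I and type II interferon. Of 34 tested members 19 rose and none fell, with a median log2 difference of 0.95 and all 34 above 0. Irf7, a transcription factor that amplifies the response, ranged from 3.83 to 8.39 (median 5.61) at 26 weeks and stood at 9.93, 6.15, 44.6, 15.3 and 10.8 at 35 weeks, with replicate 02 inside the earlier range (log2 1.15 ± 0.25, adjusted p = 0.00287). Gbp2, a guanylate-binding protein that attacks microbial vacuoles, ranged from 2.32 to 9.34 (median 4.14) and stood at 15.3, 3.22, 329.9, 25.4 and 18.5 (log2 2.28 ± 0.57, adjusted p = 0.0112). Igtp, an immunity-related GTPase, stood at 25.4, 12.2, 1768, 95.6 and 45.4 against an earlier range of 5.73 to 36.3 (median 11.9). In both Igtp and Gbp2, replicate 03 stood far above all other libraries. Ifi27 moved more evenly, from a range of 39.8 to 62 (median 45.4) to 77, 44.8, 121, 87.5 and 68.6 (log2 0.68 ± 0.16, adjusted p = 0.00611). Members called numbered 9 without replicate 03 and 8 without replicate 05, and the call of Igtp was lost without replicate 05 (log2 2.36 against 2.44). They numbered 12 without replicate 03 or 08 of 26 weeks, 5 with estimated depth as a covariate and 2 with the replicate number as a block. Gbp10, a guanylate-binding protein outside the list with close copies nearby, stood at 5.67, 0, 335, 14 and 8.04 at 35 weeks against 0 to 3.76 (median 0.598) earlier (log2 2.83 ± 0.73, adjusted p = 0.0129), and its log2 difference without replicate 03 was 1.64.

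**Figure D4:**
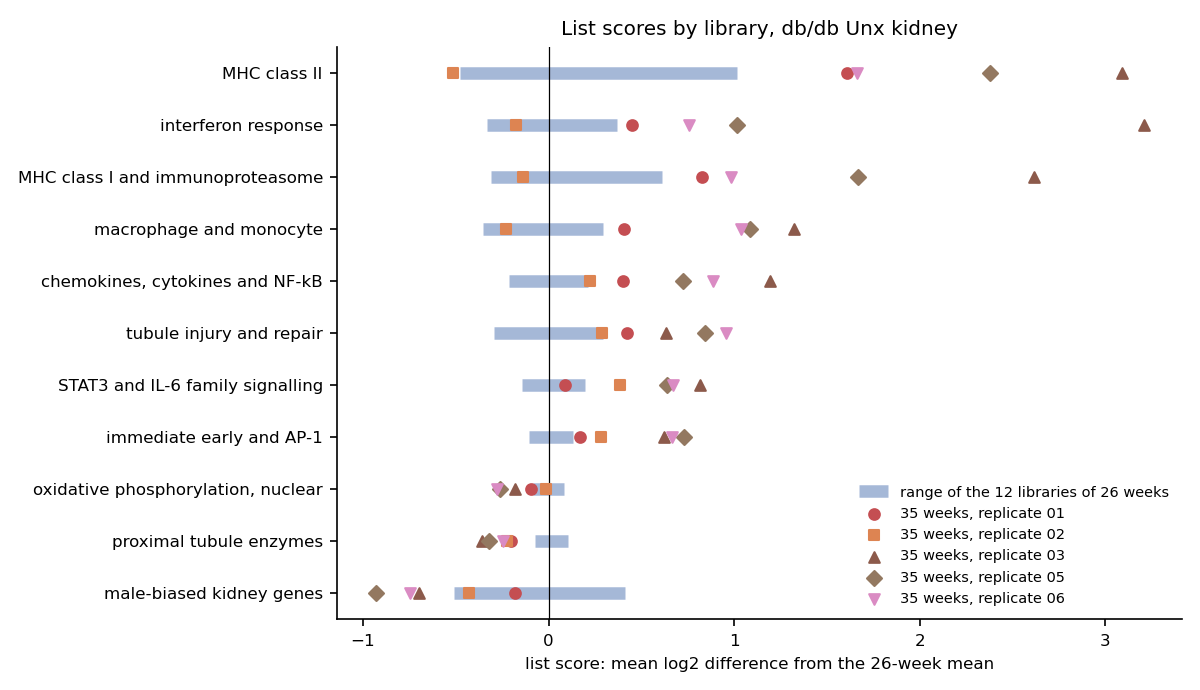
List scores, the mean over tested members of log2(value + 1) minus the gene's 26-week mean, for 11 gene lists in db/db Unx kidney: the bar spans the 12 libraries of 26 weeks and each marker is 1 library of 35 weeks. Replicate 03 is highest for MHC class II (3.09) and interferon genes (3.21) and replicate 02 lies at -0.52 and -0.18, while proximal tubule enzymes lie below the 26-week range in all 5.

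Chemokines recruit leukocytes, and NF-kB is the transcription factor family that induces many of them. On this list 19 of 28 tested genes rose and none fell, with a median log2 difference of 0.66. Nfkbia, the inhibitor that NF-kB itself induces, ranged from 28.1 to 72.9 (median 41.7) at 26 weeks and stood at 65.4, 77.4, 109.8, 105 and 109 at 35 weeks, with only replicate 01 inside the earlier range (log2 1.06 ± 0.15, adjusted p = 9.61e-05). Cxcl16, a membrane-bound chemokine, went from a range of 31.1 to 47.4 (median 42.4) to 75.9, 46.1, 120.2, 91.4 and 81.5 (log2 0.97 ± 0.14, adjusted p = 1.30e-04). Ccl2, the monocyte attractant, went from a range of 0.453 to 2.41 (median 1.65) to 3.78, 1.47, 15.1, 4.33 and 4.92, highest in replicate 03 (log2 1.16 ± 0.24, adjusted p = 0.00203). Cxcl1, a neutrophil attractant, rose by 1.34 ± 0.29, and replicates 05 and 06 were highest at 8.07 and 13.4. Il34, a ligand of the macrophage growth factor receptor, rose from a range of 4.68 to 13.8 (median 7.56) to 13.5, 11.7, 14, 14.6 and 17.8 (log2 0.72 ± 0.14, adjusted p = 0.00105), and its db/m means were higher, 41.8 and 35.7. Nfkbiz and Birc3, 2 further NF-kB targets, rose by 0.82 ± 0.19 and 0.79 ± 0.18. Counts of called members were 10 without replicate 03, 12 without 05 and 11 without 06, and 7 with the replicate number as a block. The difference between the age changes was called for 5 members, Tnfrsf12a, Nfkbia, Cxcl16, Il34 and Ccl2, all lost without replicate 05 of 35 weeks. Except for Tnfrsf12a these calls were lost without other libraries as well, and that of Ccl2 was kept in 6 of the 28 fits that left out 1 library.

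Macrophage and complement genes rose as well. Of 32 macrophage and monocyte markers tested, 20 rose and none fell, with a median log2 difference of 0.79. C1qa, which macrophages of the kidney express as a subunit of complement C1q, ranged from 7.66 to 17.5 (median 13.3) at 26 weeks and stood at 21.2, 13.3, 34.6, 32.5 and 29.6 at 35 weeks, with replicate 02 at the earlier median (log2 0.93 ± 0.17, adjusted p = 6.83e-04). Fcgr3, an antibody receptor, went from a range of 4.19 to 12 (median 5.73) to 8.62, 6.76, 17.9, 24.4 and 18.5 (log2 1.03 ± 0.22, adjusted p = 0.0021). Csf1r, the receptor for the growth factors that sustain macrophages, rose by 0.54 ± 0.13. Gpnmb, a gene of lipid-laden and injury-associated macrophages, was near 0 at 26 weeks (0 to 1.39, median 0.383) and stood at 1.28, 1.07, 1.48, 3.86 and 4.74, highest in replicates 05 and 06 (log2 1.19 ± 0.22, adjusted p = 5.84e-04). Without replicate 03, 8 of the 32 were called, and with replicates 05 or 06 left out 13 were. The number was 10 with estimated depth as a covariate and 8 with the replicate number as a block. The macrophage marker Cd163 was not analysed here.

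On the complement list 10 of 22 tested genes rose and none fell, and C1qa, C1qb and C1qc stand on both lists. C3, the central component, ranged from 114 to 269 (median 195) at 26 weeks and stood at 359, 266, 318, 616 and 546 at 35 weeks, where replicate 02 alone lay within the earlier range and replicates 05 and 06 were highest (log2 1.10 ± 0.21, adjusted p = 0.00158). In db/m kidneys C3 averaged 11.4 and 17.1. C4b went from a range of 9.99 to 40.1 (median 19.1) to 60.2, 15.7, 108, 115 and 57 (log2 1.61 ± 0.34, adjusted p = 0.0035), although its near-identical copy C4a differed by 0.04 ± 0.21 (adjusted p = 0.926). C2 rose by 0.45 ± 0.11. Cfb, an activator of the alternative pathway, and Cd55, an inhibitor, differed by 0.13 ± 0.06 and 0.08 ± 0.17 and were not called. Called members numbered 6 without replicate 03 or 05, 6 with estimated depth as a covariate and 5 with the replicate number as a block.

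Few markers of other leukocytes could be tested in these kidneys. Of 25 T and NK cell markers 6 reached the filter, limma called none of them and 1 had an unadjusted p below 0.05. The summed level of the 21 markers with values ran from 3.14 to 22.2 at 26 weeks and from 3.10 to 22.5 at 35 weeks. Trac, Trbc1 and Trbc2, the T cell receptor constant genes, were not analysed here. Among B and plasma cell markers, 6 of 22 were tested, and Jchain, which joins antibody units, was called (log2 1.14 ± 0.35, adjusted p = 0.0339), a call lost without replicate 03 (1.20), 05 (0.82) or 06 (1.22) of 35 weeks or 08 of 26 weeks. The 7 B and plasma cell markers with values summed to 16.7 to 28.4 at 26 weeks and 23.6 to 41.1 at 35 weeks. Ighm, Igkc and the other immunoglobulin constant genes listed were not analysed here. Of 14 neutrophil markers 7 had values and 5 were tested. Of the tested ones Lcn2 was called, a gene that injured tubules also make. S100a8 and S100a9, the most abundant neutrophil transcripts, differed by -0.02 ± 0.42 and 0.23 ± 0.50 (adjusted p = 0.982 and 0.828).

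Injured tubule cells express a recognised set of genes. On that list 16 of 28 tested genes rose, none fell, all 28 differences were above 0 and the median was 0.55. Cp, ceruloplasmin, ranged from 57.3 to 91.6 (median 70.2) at 26 weeks and stood at 114, 108, 111, 108 and 131 at 35 weeks without overlap (log2 0.67 ± 0.09, adjusted p = 1.85e-05). Vcam1, an adhesion molecule of tubule cells that fail to repair, went from a range of 7.4 to 26.4 (median 13.2) to 36.3, 17.6, 58.1, 51.4 and 63.3, with replicate 02 alone inside the earlier range (log2 1.56 ± 0.27, adjusted p = 6.83e-04). Spp1, osteopontin, went from a range of 2325 to 4950.0 (median 3736) to 5549, 4299, 6344, 8194 and 7730.0 and was higher than the earlier maximum in 4 of 5 (log2 0.81 ± 0.14, adjusted p = 6.99e-04). Lcn2, a secreted iron carrier used as an injury marker, rose from a range of 9.14 to 36.1 (median 21) to 41.3, 33, 56.7, 67.5 and 63 (log2 1.34 ± 0.26, adjusted p = 0.00149). Krt20, a keratin of injured tubule, rose without overlap from a range of 0.741 to 3.78 (median 2.85) to 4.7, 4.92, 5.71, 9.4 and 29.1, with replicate 06 far highest (log2 1.46 ± 0.26, adjusted p = 5.02e-04). Krt20 is also a urothelium marker, and the other 3 tested urothelium markers were not called.

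Further members of the injury list stood at low to moderate levels. Sox4, a transcription factor of the repairing tubule, rose from a range of 26.5 to 34.3 (median 30.3) to 35.3, 46.4, 37.8, 45.6 and 47.9 without overlap (log2 0.48 ± 0.09, adjusted p = 6.83e-04). Sox9, another such factor, rose by 0.90 ± 0.22 and Dcdc2a by 0.71 ± 0.13. Havcr1, which encodes the injury marker KIM-1, stood at 27.6, 12, 15.6, 41.7 and 94.4 against an earlier range of 2.41 to 24 (log2 1.65 ± 0.44, adjusted p = 0.0167). Replicate 06 was highest and replicates 02 and 03 lay within the earlier range. Its call was lost without replicate 05 (log2 1.52) or 06 (1.23). Cd44, Vim and Krt8 were not called, at 0.79 ± 0.29, 0.32 ± 0.12 and 0.12 ± 0.06. The number of called members was 12 with the replicate number as a block and between 13 and 19 without any 1 library of 35 weeks, and 13 were called in each of the 28 fits. With replicates 03, 05 and 06 left out together the median was 0.36.

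IL-6 family cytokines signal through the shared receptor Il6st to STAT3, which induces the feedback inhibitor Socs3 and acute phase genes. Of 21 tested members of this list 13 rose and none fell, with a median of 0.54. The cytokines Il6, Il11 and Osm were not analysed here. Cebpd, a transcription factor that STAT3 induces, ranged from 7.05 to 16.7 (median 10.7) at 26 weeks and stood at 12.3, 18.1, 39.7, 34.4 and 47.5 at 35 weeks, with replicate 01 inside the earlier range (log2 1.31 ± 0.22, adjusted p = 4.54e-04). Cebpb went from a range of 32.4 to 60.5 (median 42.2) to 42.8, 67.3, 112, 84.4 and 84.2 (log2 0.79 ± 0.16, adjusted p = 0.00268). Icam1, an adhesion molecule for leukocytes, rose by 0.91 ± 0.18, highest in replicate 03 at 104. The receptor subunit Il6st rose by 0.29 ± 0.08 and Socs3 by 0.83 ± 0.24. Both calls were lost without replicate 03 (log2 0.25 and 0.56), 05 (0.27 and 0.71) or 06 (0.27 and 0.85). The kinases Jak1 and Jak2 were not called, at 0.10 ± 0.05 and 0.29 ± 0.12. Called members numbered 7 without replicate 03, 6 without 05 or 06, 7 with estimated depth as a covariate and 4 with the replicate number as a block.

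Acute phase genes, known from the liver, rose in 9 of 15 tested members, at a median of 0.63. Mt1, a metallothionein, fell, a call lost without any of 11 libraries, among them replicates 01, 03, 05 and 06 of 35 weeks. Fgb, a fibrinogen chain, ranged from 1.28 to 4.98 (median 3.32) at 26 weeks and stood at 6.91, 6.75, 5.77, 11.9 and 14.6 at 35 weeks without overlap (log2 1.22 ± 0.23, adjusted p = 7.80e-04). Hp, haptoglobin, stood at 1.22, 2.38, 29.7, 8.16 and 6.38, where replicate 03 was highest, against 0.123 to 2.4 (median 0.851) earlier (log2 1.80 ± 0.44, adjusted p = 0.00939). Fga and Fgg, the other fibrinogen chains, rose by 0.65 ± 0.19 and 0.63 ± 0.19. Both calls were lost without replicate 05 (log2 0.57 and 0.55) or 06 (0.53 and 0.45). In db/m mice 1 of the 15 members rose, Fga by 0.89 ± 0.21, and 2 fell. Cp, C3 and Lcn2, described above, belong to this list as well. Called members that rose numbered 5 without replicate 05 or 06 and 4 with the replicate number as a block. Saa1 was listed at 0 in each db/m library and was low in db/db Unx, at 0.0381 to 2.82 (median 0.821) at 26 weeks and 2.56, 1.11, 1.36, 2.56 and 2.99 at 35 weeks, a log2 difference of 0.75 ± 0.22. The call of Saa1 was lost without replicate 01 (log2 0.69), 05 (0.69) or 06 (0.65).

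Immediate early genes answer growth factor and stress signals within minutes, and AP-1 is built from the Fos and Jun proteins. Of 30 tested members 18 rose and none fell, with a median of 0.45, and the list score of all 5 libraries of 35 weeks exceeded the 12 of 26 weeks. Klf6, a transcription factor of the stressed tubule, ranged from 44.4 to 68 (median 58.4) at 26 weeks and rose to 84.1, 73.2, 113, 113 and 106 without overlap (log2 0.75 ± 0.11, adjusted p = 8.54e-05). Egr1 went from a range of 1.7 to 6.79 (median 4.93) to 7.2, 11.8, 15.2, 7.92 and 9.22, also without overlap, with replicate 03 highest (log2 0.98 ± 0.19, adjusted p = 9.64e-04). Mafk, a partner of bZIP factors, rose from a range of 29.1 to 45.3 (median 36.5) to 50.1, 52, 51.8, 51.7 and 49.5, nearly equal in the 5 (log2 0.46 ± 0.10, adjusted p = 0.00227). Jun rose by 0.55 ± 0.12 and Atf3 by 1.05 ± 0.24. Ccn2, a matricellular gene that YAP and TGF-beta induce, went from a range of 54.4 to 86.6 (median 61.8) to 74.8, 88.4, 85.6, 172 and 135, with replicates 05 and 06 highest (log2 0.74 ± 0.15, adjusted p = 0.00191). Dusp1 and Nr4a1 were not called, at 0.55 ± 0.24 and 0.64 ± 0.28. Called members numbered 11 without replicate 05 and 7 with the replicate number as a block.

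Among 20 glucocorticoid targets tested, 5 rose and 2 fell (Mt1 and Hsd11b2), at a median of 0.47. Over all tested genes 5.16% rose and 6.14% fell. Those that fell numbered 1 without replicate 01, 03, 05 or 06 of 35 weeks. The number was also 1 with quantile normalization, estimated depth as a covariate or the replicate number as a block. Without replicate 01 of 35 weeks 10 members rose. Pdk4, which inhibits pyruvate dehydrogenase in fasting and under glucocorticoids, ranged from 4.6 to 17.7 (median 11) and stood at 20.3, 18.5, 21.2, 73.6 and 34.4 without overlap, with replicate 05 far highest (log2 1.40 ± 0.30, adjusted p = 0.00337). Cdkn1a, the cell cycle inhibitor p21, stands on this list and that of p53 targets and rose from a range of 23.2 to 47.7 (median 38.3) to 39.4, 51.3, 61.3, 76.1 and 63.9 (log2 0.65 ± 0.15, adjusted p = 0.00414). Its db/m means were 4.12 and 9.36. Hsd11b2, which inactivates glucocorticoids in the collecting duct, fell by 0.28 on the log2 scale, with an SE of 0.07. Sgk1 and Per1 were not called, at 0.80 ± 0.28 and 0.74 ± 0.27.

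Many enzymes of the proximal tubule fell. Of 37 tested 17 fell and none rose, at a median of -0.19, and all 5 libraries of 35 weeks scored below the 12 of 26 weeks. The list holds Cmbl, Selenbp1 and Ddt because earlier results of these data showed them, and without these 3 genes 14 of 34 fell, or 9 without replicate 05 or 06 and 8 with either estimated depth as a covariate or the replicate number as a block. Ass1, which makes arginine precursor from citrulline, ranged from 521 to 706 (median 625) at 26 weeks and stood at 481, 449, 493, 344 and 429 at 35 weeks without overlap (log2 -0.50 ± 0.07, adjusted p = 5.46e-06). Glyat, which conjugates acyl groups with glycine, went from a range of 699 to 842 (median 789) to 712, 519, 544, 552 and 563, where replicate 01 alone stayed inside the earlier range (log2 -0.43 ± 0.06, adjusted p = 1.05e-05). Akr1a1 and Sord, which reduce aldehydes and oxidise sorbitol, fell without overlap, with log2 differences of -0.26 ± 0.05 and -0.23 ± 0.04 (SE), small changes in abundant transcripts. Cmbl, a hydrolase, fell from a range of 181 to 237 (median 205) to 168, 147, 150.3, 132 and 127, and Selenbp1, a sulfur-oxidising enzyme, from a range of 714 to 836 (median 797) to 665, 648, 565, 561 and 651. Both lay below the earlier range in all 5. Cmbl also fell in db/m mice, with a log2 difference of -0.29 ± 0.07. Without 1 library of 35 weeks, between 12 and 19 of the 37 fell, and Ass1 was the member that fell with replicates 03, 05 and 06 left out.

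Cyp27b1, the enzyme that makes active vitamin D in the proximal tubule, fell furthest among these enzymes. It ranged from 228 to 564 (median 379) at 26 weeks and stood at 110.5, 253, 159, 85.7 and 110.1 at 35 weeks, with replicate 02 inside the earlier range and the other 4 below it. The log2 difference was -1.46 ± 0.24 (SE), with an adjusted p of 5.11e-04, and without any 1 library it lay between -1.69 and -1.31. Its db/m means were 17.9 and 10.8, far under those of db/db Unx at either age. Degs2, a sphingolipid enzyme outside the list, fell without overlap from a range of 53.5 to 94.6 (median 64.8) to 49.6, 39.9, 30.2, 29.8 and 34.8 (log2 -0.89 ± 0.13, adjusted p = 1.67e-04). Inmt, a methyltransferase, went from a range of 237 to 513 (median 377) to 288, 159, 122, 108 and 159.8 (log2 -1.18 ± 0.19, adjusted p = 4.92e-04), with replicate 01 inside the earlier range.

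Transporters of the proximal tubule were called in both directions, beside shares of 5.16% that rose and 6.14% that fell over all tested genes. Of 41 tested 3 rose (Slc6a18, Slc5a1 and Slc13a1), near the share over all genes, and 9 fell, at a median of -0.11. Those that fell numbered 4 to 6 without replicate 02, 03, 05 or 06 and 5 with estimated depth as a covariate. A rise was called for 1 member without replicate 05 or with the replicate number as a block. Slc34a1, the main phosphate transporter, ranged from 4091 to 5122 (median 4639.5) at 26 weeks and stood at 4312, 3805, 4200.5, 3532 and 3763 at 35 weeks, where replicates 01 and 03 lay inside the earlier range (log2 -0.23 ± 0.05, adjusted p = 0.00158). Slc26a1, a sulfate and oxalate transporter, went from a range of 132 to 170.2 (median 158) to 132, 118, 119, 94.6 and 131, all under the earlier lowest value, which replicate 01 nearly reached (log2 -0.41 ± 0.08, adjusted p = 9.83e-04). Slc22a18, an organic cation transporter, fell without overlap, with a log2 difference of -0.33 ± 0.05. Slc5a1 (SGLT1), a glucose transporter of the late proximal tubule, rose by 0.26 ± 0.07, a call lost without replicate 05 (log2 0.24), as was that of Slc13a1, a sulfate transporter, without 05 (0.32) or 06 (0.33). Transporters that fell numbered 5 without replicate 03 or 06 and 4 without 05. Slc22a6, the organic anion transporter OAT1, and Slc9a3, the sodium-proton exchanger, were not called, at -0.14 ± 0.06 and 0.12 ± 0.08. Of 23 genes of endocytosis and the brush border 2 fell and none rose, at a median of -0.01, and 4 fell without replicate 01.

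Male-biased kidney genes depend on androgen and are expressed mainly in the proximal tubule. Of 18 tested 10 fell and none rose, at a median of -0.48, and Cyp2e1 stands on the enzyme list too. Kap, the kidney androgen-regulated protein, ranged from 939 to 3233 (median 1928) at 26 weeks and stood at 1209, 1214, 574, 339 and 606 at 35 weeks, with replicates 01 and 02 inside the earlier range and 03, 05 and 06 below it (log2 -1.48 ± 0.27, adjusted p = 0.0012). Slco1a1, an organic anion transporter, went from a range of 1.95 to 50.9 (median 22.2) to 5.75, 2.5, 0.604, 0.737 and 1.46, with replicates 03, 05 and 06 below the earlier range (log2 -2.75 ± 0.54, adjusted p = 0.0021). Slc7a13, an aspartate and glutamate transporter, went from a range of 23.7 to 95.2 (median 48.8) to 49, 27.6, 13.3, 11.5 and 14.9 (log2 -1.31 ± 0.29, adjusted p = 0.00548). In intact db/m mice these genes were far higher at both ages, with means of 19528 and 14649 for Kap and of 635 and 480.4 for Slco1a1. Without replicate 05, 4 of the 18 fell, and without 06, 6 did. The number was 5 with estimated depth as a covariate and 2 with the replicate number as a block. Ugt2b37 and Ugt2b38, glucuronosyltransferases outside the list that resemble each other, fell, with log2 differences of -1.32 ± 0.27 and -0.85 ± 0.16.

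Intercalated cells of the collecting duct secrete acid or base. Of 18 tested markers 6 fell and none rose, at a median of -0.20, where 6.14% of all tested genes fell and 5.16% rose. Slc4a1, the anion exchanger of acid-secreting cells, ranged from 15.8 to 27.7 (median 23.5) at 26 weeks and stood at 6.22, 15.4, 9.36, 7.16 and 9.4 at 35 weeks, with no overlap and replicate 02 nearest the earlier range (log2 -1.21 ± 0.19, adjusted p = 1.41e-04). Slc4a1 is also made by red blood cell precursors, and the erythroid genes Hba-a1 and Alas2 differed by 0.10 ± 0.39 and 0.21 ± 0.28 and were not called. Atp6v1b1 and Atp6v1g3, subunits of the proton pump, fell, with log2 differences of -0.51 ± 0.11 and -0.36 ± 0.08. Foxi1, the transcription factor that specifies these cells, was not called (-0.22 ± 0.13), nor was the base-secreting cell marker Slc26a4 (-0.21 ± 0.11). Without replicate 05 or 06, or with the replicate number as a block, 3 of the 18 fell. Among markers of neighbouring segments, 2 of 16 of the thick ascending limb fell (1 without replicate 01 or 05, 0 without 06 or with the block). Of 16 principal cell markers 3 fell (2 without replicate 01, 03, 05 or 06), and Npnt, which encodes the matrix protein nephronectin, rose by 0.26 ± 0.08. The call of Npnt was lost without replicate 03, 05 or 06.

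Subunits of the mitochondrial respiratory chain fell by small amounts in many genes. Of 74 nuclear-encoded subunits 51 fell and none rose, at a median of -0.17, and of 13 mitochondrially encoded genes 10 fell at a median of -0.26. Ndufb7 of complex I ranged from 311 to 348 (median 319) at 26 weeks and stood at 275, 294, 278, 234 and 240.5 at 35 weeks, with no overlap (log2 -0.29 ± 0.05, adjusted p = 8.54e-05). Uqcr11 of complex III fell without overlap, with a log2 difference of -0.27 ± 0.05. The mitochondrial gene mt-Nd4 went from a range of 3201 to 4094 (median 3624) to 3467, 3403, 3028, 2431 and 2663, with replicates 05 and 06 lowest (log2 -0.29 ± 0.06, adjusted p = 0.0028). Called nuclear members numbered 20 without replicate 05 and 17 without 06, and called mitochondrial members 3 and 4. In db/m mice 58 of the 74 nuclear subunits fell with age as well, at a median of -0.27, and 60 of 68 cytosolic ribosomal proteins fell at a median of -0.30. In db/db Unx 16 of these 68 ribosomal proteins fell, at a median of -0.12, a count that was 6, 2 and 3 without replicates 03, 05 and 06 of 35 weeks and 9 or 10 without replicates 01, 04, 09 or 10 of 26 weeks. No member of the 3 lists was called in the difference between the age changes. Short transcripts shared this direction: genes with up to 2434 exonic bases had a median of -0.077 in db/db Unx and -0.109 in db/m, and 53 of the 74 subunits and 46 of the 68 ribosomal proteins were that short. Genes with 7556 or more had medians of 0.044 and 0.076, and the part of length in these results was not tested. Quantile normalization left 28 of the 74 nuclear subunits, 5 of the 13 mitochondrial genes and 10 of the 68 ribosomal proteins called. The counts were 32, 7 and 3 with estimated depth as a covariate and 12, 4 and 0 with the replicate number as a block.

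Further metabolic lists stand beside shares of 6.14% that fell and 5.16% that rose over all tested genes. Of 41 genes of fatty acid oxidation 5 fell and 1 rose, at a median of -0.02. Acaa1a, Acaa1b and Fabp3 fell, and Pdk4 was the one that rose. Of 23 tested genes of defence against peroxide, superoxide and ferroptosis 6 fell and 1 rose. The 6 were 3 with quantile normalization, 4 without replicate 05 or with estimated depth as a covariate, and 2 with the replicate number as a block. The gene that rose, the metal transporter Slc39a14 (0.35 ± 0.11), lost its call without any 1 of 11 libraries, among them replicates 02, 03, 05 and 06 of 35 weeks. Sod2, the mitochondrial superoxide dismutase, ranged from 497 to 522 (median 505) at 26 weeks and stood at 471, 477, 428, 427 and 400.3 at 35 weeks without overlap (log2 -0.20 ± 0.04, adjusted p = 0.00103). Gpx1 and Prdx1 fell without overlap, with log2 differences of -0.22 ± 0.04 and -0.20 ± 0.04 (SE). Both have db/m differences of the same sign, -0.25 ± 0.05 and -0.22 ± 0.05. Of the 23 genes of defence, 6 fell in db/m mice and none rose.

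Scar and glomerular genes changed in a minority of members, where 5.16% of all tested genes rose and 6.14% fell. Of 43 tested matrix and fibroblast genes 6 rose and 1 fell, at a median of 0.27. Those that rose numbered 4 with the replicate number as a block and from 4 to 9 without any 1 library of 35 weeks. The one that fell, Timp3, an inhibitor of matrix proteases, had a log2 difference of -0.20 ± 0.06, and its call was lost without replicate 02, 05 or 06. Tgfbi, a matrix protein induced by TGF-beta, ranged from 7.13 to 12.4 (median 9.41) at 26 weeks and stood at 14.4, 10.5, 25.8, 17.5 and 16.2 at 35 weeks, with replicate 02 inside the earlier range (log2 0.70 ± 0.13, adjusted p = 5.84e-04). Col18a1, a basement membrane collagen, rose without overlap from a range of 107 to 156 (median 137) to 159, 172, 166, 188 and 184 (log2 0.36 ± 0.07, adjusted p = 0.00137). Mgp, an inhibitor of calcification, rose by 0.56 ± 0.12. The fibrillar collagen genes Col1a1, Col1a2 and Col3a1 were not called, at 0.38 ± 0.21, 0.05 ± 0.11 and 0.30 ± 0.21. Of 20 podocyte markers Nes rose (log2 0.52 ± 0.12, adjusted p = 0.00449), joined by 1 or 2 others without replicate 01, 02 or 03 of 35 weeks or 06 or 12 of 26 weeks. Limma called none of 23 cell cycle genes, and 2 had an unadjusted p below 0.05. Of 23 p53 targets 4 rose (2 with the replicate number as a block), among them Gdf15, a stress cytokine, from a range of 9.35 to 23.4 (median 17.8) to 19.9, 32.4, 35.9, 34.9 and 42.4 (log2 0.88 ± 0.18, adjusted p = 0.00162). Of 28 genes of the unfolded protein and integrated stress responses 4 rose, with Eif2ak3 (PERK) at 0.47 ± 0.10 (SE), with an adjusted p of 0.00198, a number that was 2 without replicate 03 or 06 and 1 without 05, with estimated depth as a covariate or with the replicate number as a block.

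Clock genes bear on the time of day at which kidneys were taken, which the labels do not give. Of 19 tested 3 fell, or 1 without replicate 05, with estimated depth as a covariate or with the replicate number as a block. Over all tested genes 6.14% fell and 5.16% rose, so that 1 member of 19 is near either share. Rora, a nuclear receptor of the clock, rose by 0.28 ± 0.07, and was joined by 1 or 2 others in 6 of the 28 fits that left out 1 library. Dbp, an output gene of the clock, ranged from 79.5 to 142 (median 109.5) at 26 weeks and stood at 75, 57.7, 56.9, 40.6 and 59.4 at 35 weeks, all 5 below the earlier range (log2 -0.95 ± 0.24, adjusted p = 0.0129). Its call was lost without replicate 05 (log2 -0.83). Dbp also fell in db/m mice, by 1.54 ± 0.28. Arntl, its opposite in phase, differed by 1.48 ± 0.34 there and by 0.79 ± 0.30 in db/db Unx. The part of sampling time in the other results was not tested.

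In intact db/m mice 368 genes (2.73%) rose and 631 (4.68%) fell between 26 and 35 weeks, or 999 in all, which became 578 without replicate 05 of db/m at 26 weeks. The db/m and db/db Unx comparisons share no library. The same direction was called in both for 61 genes that rose, 8.75% of those that rose in db/db Unx and 16.6% of those in db/m. For genes that fell the number was 277, or 33.4% and 43.9%. Another 7 genes were called in opposite directions. The difference between the age changes was tested for each gene and was called for 74 (0.548%), 53 with a higher change in db/db Unx and 21 with a lower one, and 63 of these were also called in db/db Unx. That number varied with the library left out. It was 7 without replicate 05, 36 without 03, 42 without 06, 122 without 01 and 249 without 02 of db/db Unx at 35 weeks. It was 14, 30 and 37 without replicates 02, 04 and 05 of db/m at 26 weeks, 46, 32, 37 and 46 without 01, 02, 03 and 04 of db/m at 35 weeks, and 46 to 49 without 03, 06, 07, 08 or 09 of db/db Unx at 26 weeks.

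**Figure D5:**
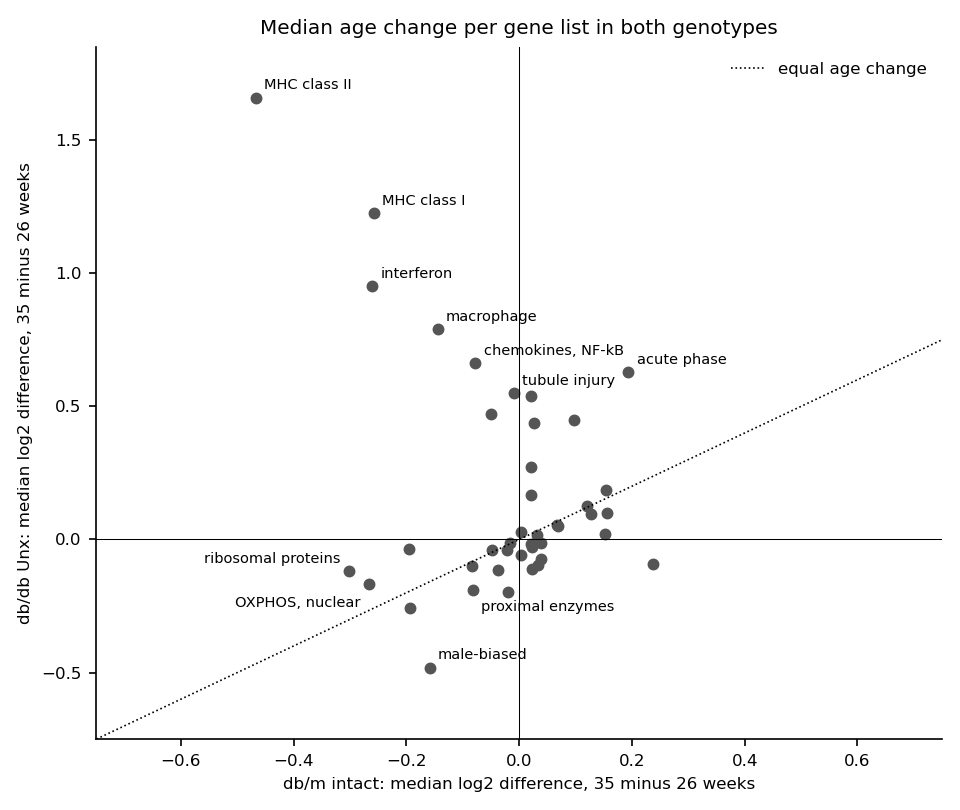
Median log2 difference between 35 and 26 weeks of the tested members of each gene list, in intact db/m mice (horizontal axis) and in db/db Unx mice (vertical axis), 1 point per list, with a dotted line where both would be equal. MHC class II lies at 1.66 in db/db Unx and -0.47 in db/m, while ribosomal proteins lie at -0.12 and -0.30.

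For 6 genes the difference between the age changes was called in each of the 28 fits that left out 1 library. For Slc4a1 the log2 difference was -1.21 in db/db Unx and 0.47 in db/m, and these differed by -1.68 ± 0.28 (SE, adjusted p = 0.00711). Lgals3, galectin-3, a lectin of macrophages and injured tubule, ranged from 65.3 to 97.3 (median 79) at 26 weeks and stood at 93.9, 104, 108, 115 and 127 at 35 weeks in db/db Unx, against db/m means of 41.2 and 34.8 (log2 0.66 ± 0.11, adjusted p = 0.00711 for the difference of the changes). For Tgfbi that difference was 1.17 ± 0.19 (SE, adjusted p = 0.00711), with db/m means of 17.8 and 12.6. C1qa and Mgp gave 1.42 ± 0.26 (SE, adjusted p = 0.01) and 1.03 ± 0.18 (SE, adjusted p = 0.01). In each of Lgals3, Tgfbi, C1qa and Mgp the db/m value was lower at 35 weeks, called for Tgfbi and Mgp (adjusted p = 0.0427 and 0.0335). Patz1, a zinc finger transcription factor, rose by 0.46 ± 0.10 in db/m and differed by -0.26 ± 0.09 in db/db Unx, where its call was lost in 19 of the 28 fits. The differences for Tnfrsf12a (0.97 ± 0.18) and Ell3 (-0.74 ± 0.15) were no longer called without replicate 05 of 35 weeks.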

How the data were processed

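Kidney RNA was extracted with TRIzol and RNeasy and made into Nextera XT libraries, per the labels' protocols. The authors deposited 1 table of scaled signal values for 28 libraries. DRAGEN and GRCm38 (mm10) are named, per the submitters' processing notes, while for version, annotation, scaling and strand the entry is: not given in the sources used here. Reads of overlapping or antisense genes may then not be told apart. Steps in the deposited signal gave an estimate of depth, at 21.8 to 30.8 M counts. Gene IDs were named from GENCODE M21 (14842 of 14845). A gene was kept if its value was 1 or more in 5 or more of 28 libraries (13495), and log2(value + 1) was fitted for 4 groups at once in limma 3.58.1 (R 4.3.3) with trend and robust moderation and Benjamini-Hochberg adjustment over all tested genes. A log2 difference on this scale understates changes of low genes. Called means an adjusted p below 0.05, errors after ± are standard errors unless marked SD, and all tests were two-sided.

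Genes are named by these rules. First come the 12 per direction with the largest log2 difference that stayed called without any 1 library of 35 weeks. Their mean over the 17 libraries also had to reach the median of the tested genes. Next come the 10 per direction with the smallest adjusted p. The 6 per direction with the clearest difference of the age changes among genes called in db/db Unx, and Lepr, were added. Each list gives up to 6 called members. Predicted genes were left out, and members that were not called are given as such. Atf3, B2m, Birc3, Fgg, H2-K1, H2-Q6, H2-Q7, H2-T22, Havcr1, Igtp, Il6st, Jun, Nfkbiz, Psmb10, Psme1, Psme2, Saa1, Slc13a1, Slc39a14, Socs3, Sox9, Spp1 and Tap1 are called list members beyond these 6 and were chosen after their values were seen. The comparison and the 52 gene lists were chosen with earlier results of these data known, and lists share members, such as the C1q genes, Lcn2, Nfkbia and Slc4a1. A list is described by its counts and its median, which carry no test.

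Alternatives were pseudocounts of 0.25 and 4, no filter or a stricter one of 5, quantile or median-of-ratios scaling, fits of the compared libraries alone, library or voom weights, depth as a covariate, plain moderation, the replicate number as a block, and each library left out. Leaving out replicates 03, 05 and 06 of 35 weeks together, and the enzyme list without Cmbl, Selenbp1 and Ddt, were added after seeing the data. The scripts were tested on simulated data. Promoters are from RefSeq, and Python 3.11.15 with numpy 2.4.6, pandas 2.3.3, scipy 1.17.1 and matplotlib 3.10.9 was used for the summaries and plots.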

Additional observations from a re-analysis of the deposited data

Results flagged for a closer look

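In 10 of the 152 named genes, 1 of the 5 libraries of 35 weeks stood further from the nearest other library than Dixon's critical value of 0.71 allows on the log2 scale. Chance alone gives this in about 1 in 20 groups. Replicate 01 was far above the other 4 for the enzymes Akr1a1 (3236), Glyat (712) and Sord (2101), and far below them for the clock gene Per1 (11.6). Replicate 05 was far highest for Jchain (18.5) and Nkx6-2 (21.2), and replicate 03 for Icam1 (104) and S100a8 (8.97). Replicate 06 was far highest for Cp (131) and replicate 02 for Cd55 (4.61). For Akr1a1, Glyat and Sord the replicate apart is the one nearest the 26-week libraries. The calls of Akr1a1, Glyat, Sord, Nkx6-2, Icam1 and Cp were kept without any 1 library.

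The change between 26 and 35 weeks differed between db/db Unx and db/m mice, by limma's test of that difference with adjustment over all genes, for 23 of the named genes. On the log2 scale the difference of the changes was 3.29 for H2-DMb2, 1.76 for Irf7, 1.5 for Ccl2, 1.42 for C1qa, 1.36 for H2-T23, 0.96 for Cxcl16, 0.95 for Il34, 0.88 for Psme2 and 0.71 for Psme1. Among transcription factors and signalling genes it was 1.39 for Cebpd, 1.22 for Egr1, 1.07 for Nfkbia, 0.97 for Tnfrsf12a and 1.53 for Nkx6-2. It was 1.17 for Tgfbi, 1.03 for Mgp and 0.66 for Lgals3. The difference was below 0 for Slc4a1 (-1.68), Ell3 (-0.74), Patz1 (-0.73), Smim5 (-0.63), Ass1 (-0.42) and Slc34a1 (-0.29). Of these 23, Slc4a1, Lgals3, Tgfbi, Mgp, C1qa and Patz1 stayed called without any 1 library, and the other 17 were no longer called without replicate 05 of db/db Unx at 35 weeks. Of these 17, Tnfrsf12a, Nkx6-2 and Ell3 lost their call only there, while the other 14 also lost it without libraries of db/m or further ones of db/db Unx. Ccl2 was called in 6 of the 28 fits that left out 1 library, H2-DMb2 in 7, Cebpd in 8 and Slc34a1 in 9.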

How the results depend on the processing

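The number of genes called between 26 and 35 weeks in db/db Unx, 1526, stayed within 1.5 times under 10 of the 13 alternatives that did not leave out 1 library. With estimated depth as a covariate 847 were called (387 higher and 460 lower, 45 of them at least 2-fold higher) and the difference of the age changes was called for 26. With the replicate number as a replicate block 483 were called (228 higher, 255 lower, 42 higher and 7 lower by at least 2-fold) and 29 for that difference. Numbers 07 to 12 occur only in db/db Unx at 26 weeks, so that those libraries add nothing to the comparison in this fit. Same-numbered db/db Unx libraries of the 2 ages correlated between -0.135 and 0.0375 in their deviations, and none of 5 correlated best with its own number. The db/m libraries were left out of this check, and whether the number marks a batch was not tested. With replicates 03, 05 and 06 of 35 weeks left out together, 8 were called (1 higher, 7 lower, 0 higher and 1 lower by at least 2-fold), 0 for the difference of the age changes, and H2-T22 turned to -0.068. Genes at least 2-fold higher or lower numbered 145 and 18 with a pseudocount of 0.25 and 56 and 7 with one of 4, and 199 were 2-fold higher with voom weights. The difference of the age changes was called for 178 genes with library quality weights, 38 with voom weights and 41 with plain moderation. Leaving out 1 library gave 633 to 1748 called genes, 289 to 799 higher, 344 to 949 lower, 43 to 165 higher and 9 to 14 lower by at least 2-fold, 7 to 249 for the difference of the age changes and 578 to 1140 in db/m. The 181 genes without overlap became 190 to 487, since fewer libraries overlap less. The cause of the other shifts was not tested.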
